A study of Homo sapiens with 30 samples.

Results

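MDA-MB-361 is a human breast cancer cell line of the luminal type that carries amplified ERBB2 and expresses the estrogen receptor. Its response to recombinant human BMP7 was followed on 6 two-colour arrays, which are 6 of the 30 arrays of the series; the other arrays hold the same time course in HCC1954, MDA-MB-231, T-47D and ZR-75-30, with 6 arrays for each line. On each array, cells given BMP7 (Cy5) were set against cells given vehicle (Cy3) for the same time. The first 2 arrays were of 30 min and 1 h, and the later 4 of 3, 6, 12 and 24 h. The cells of 3 cultures were pooled for every sample, no array was repeated and no dyes were swapped, so that a time point has 1 ratio and no replicate error. The 4 arrays from 3 to 24 h were therefore compared with the 2 arrays of the first hour in the same line. A probe's constant dye effect cancels in this difference, but so would a response that was already complete at 30 min.

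BMP7 is a secreted ligand that brings type I and type II serine/threonine kinase receptors together. The receptors phosphorylate SMAD1, SMAD5 and SMAD9, which bind SMAD4 and enter the nucleus. Textbook targets include the ID genes, which encode partners that keep basic helix-loop-helix transcription factors off DNA, and the inhibitory SMADs, which restrain the receptors.

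A probe was kept when both channels were well above background on at least 4 of the 6 arrays, which left 25439 of the 41000 probes. Of these, 156 were measured this well only on later arrays. Both channels were well above background for 60.4% to 67.7% of probes on an array. The number of arrays limits the precision. The vehicle channel had the profile of the labelled line: all 15 luminal markers were well above background and above the 75th percentile of the channel, with KRT19, ERBB2 and KRT18 between 6.94 and 7.49 above it on the log2 scale. Markers of other cell types were well above background on at least 4 arrays for 6 of 8 basal, 5 of 10 mesenchymal and 2 of 6 leukocyte genes. Of these lists THY1 alone exceeded the 75th percentile, by 0.081, whereas KRT5, ZEB1, COL1A2 and PTPRC were well above background on 0 arrays. The ratios of 2 arrays correlated with r between 0.56 and 0.67 within the later window, with r = 0.35 between the first-hour arrays, and with r between 0.39 and 0.60 across the windows, as a description over probes that share dyes and design.

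Before the values, the upstream sequence of 4 genes is shown because SMAD9 was the only gene past the threshold, ID1 had the largest difference of the ID genes, SMAD6 had the largest of the inhibitory SMADs, and DUSP2 was measured by 2 probes with like values. Each line holds the 250 bases before the gene start (RefSeq, GRCh38.p14), 5′ to 3′ on the strand of the gene. Capitals mark GTCT, the short element bound by SMADs, and GGCGCC, a GC-rich element linked to BMP SMADs, on either strand. Where GTCT meets its own reverse complement the capitals spell the palindrome GTCTAGAC, which contains GTCT.
SMAD9, chr13:36920239-36920488, minus strand: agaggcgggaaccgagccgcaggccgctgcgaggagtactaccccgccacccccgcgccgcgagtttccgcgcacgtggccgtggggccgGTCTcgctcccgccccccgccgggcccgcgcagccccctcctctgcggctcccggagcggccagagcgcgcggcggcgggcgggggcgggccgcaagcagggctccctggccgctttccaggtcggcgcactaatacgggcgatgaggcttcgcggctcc
ID1, chr20:31605039-31605288, plus strand: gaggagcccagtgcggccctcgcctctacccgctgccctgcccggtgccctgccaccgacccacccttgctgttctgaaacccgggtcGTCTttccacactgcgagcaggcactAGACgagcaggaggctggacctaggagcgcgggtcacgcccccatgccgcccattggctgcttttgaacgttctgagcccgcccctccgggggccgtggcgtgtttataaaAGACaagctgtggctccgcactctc
SMAD6, chr15:66701986-66702235, plus strand: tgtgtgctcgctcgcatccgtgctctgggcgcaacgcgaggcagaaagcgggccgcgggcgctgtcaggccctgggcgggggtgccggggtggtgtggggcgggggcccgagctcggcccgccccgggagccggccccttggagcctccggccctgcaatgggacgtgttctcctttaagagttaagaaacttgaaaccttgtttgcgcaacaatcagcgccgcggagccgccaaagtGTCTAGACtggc
DUSP2, chr2:96145441-96145690, minus strand: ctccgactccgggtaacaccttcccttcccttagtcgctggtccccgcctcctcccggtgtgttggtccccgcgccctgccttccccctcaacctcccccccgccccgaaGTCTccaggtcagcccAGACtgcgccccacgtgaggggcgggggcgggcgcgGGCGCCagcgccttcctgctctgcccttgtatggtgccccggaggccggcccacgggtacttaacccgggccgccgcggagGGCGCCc
ID1 held GTCT at 3 positions, which began 162, 136 and 25 bases before the start. SMAD6 held the palindrome 12 bases before the start, and DUSP2 held GGCGCC 88 and 7 bases before it. GTCT was present in 77.6% of the 27305 promoters in the same window, GGCGCC in 16.1% and GTCTAGAC in 0.176%. Of 15 promoters searched among the genes with large differences, 12 held GTCT, 4 held GGCGCC and 1 held GTCTAGAC. These matches are letters in a window, not measured sites.

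SMAD9, one of the receptor-activated SMADs of the BMP branch, rose. Its log2 ratio was -0.34 and -0.17 on the 30 min and 1 h arrays, and 1.08, 1.48, 1.41 and 1.13 on the arrays of 3, 6, 12 and 24 h. The first-hour values lay below 0 and all later values lay far above them. The mean difference was 1.53 ± 0.14 (log2, SE), or 2.88-fold, with an adjusted p of 0.0422 in limma over all probes. It was the only probe that passed in either direction, which is 0.00393% of the probes higher and 0% lower. At an unadjusted p under 0.05, limma counted 511 probes higher (2.01%) and 427 lower (1.68%). The probe (hg18, chromosome 13, 36320813 to 36320872) is dim: its vehicle signal averaged -4.77 log2 units relative to the 75th percentile, and both channels were well above background on 5 of 6 arrays. The vehicle channel changed by 0.23 and the BMP7 channel by 1.76 between the windows, so that most of the change stood in the BMP7 channel. In RNA of whole cultures, more RNA per cell and more cells that express a gene cannot be told apart. Within the first slide, where both windows have 2 arrays, the difference was 1.53. The adjusted p was 0.488 without the 30 min array, 0.107 without 1 h, 0.115 without 6 h, 0.123 without 12 h and 0.156 without 24 h, while the difference stayed between 1.44 and 1.61. With the slide as a block the adjusted p was 0.536.

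The other members of the signaling core stayed near 0. SMAD1, SMAD2, SMAD3, SMAD4 and SMAD5 had differences between -0.10 and 0.08. The measured receptors ACVR1, BMPR1A, BMPR2, ACVR2A and ACVR2B lay between -0.04 and 0.10, and 4 other receptor genes, BMPR1B among them, did not pass the filter on dim probes. The windows overlapped in each of the 5 measured receptors (no overlap over all probes: 5.54% higher, 4.59% lower). In vehicle-treated cells the brightest BMP7 probe was 0.97 log2 units above the 75th percentile, whereas its 2 dimmer probes were at -4.15 and -4.67. The study lists MDA-MB-361 among the lines it chose for low endogenous BMP4 and BMP7, so that the probes leave BMP7 expression unsettled. The ratio of the brightest BMP7 probe ranged from -0.58 to -0.17 over the 6 arrays and the windows overlapped. Of the 2 dimmer probes, 1 was lower on all later arrays. Of 22 ligand genes on the array, 10 were kept and 0 had windows that did not overlap (all probes: 5.54% higher, 4.59% lower).

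All 4 ID genes were higher on every later array than on both first-hour arrays. Windows did not overlap for 5.54% of all probes in this direction and for 4.59% in the other. ID1 had log2 ratios of -0.35 and 0.57 in the first hour and of 1.47, 1.89, 0.88 and 1.06 from 3 to 24 h. The 6 h value of ID1 was the highest ratio of the genes named here and equals 3.71-fold. ID2 went from -0.01 and 0.32 to 1.41, 1.08, 0.79 and 0.83. ID3 had -0.03 and 0.57 against 1.18, 1.21, 0.90 and 0.61. In ID3 the 24 h value was barely above the 1 h value, which itself stood above that at 30 min. ID4 had -0.66 and 0.17 against 0.99, 1.16, 0.62 and 0.61. In each of the 4 genes, read from its brightest probe, the ratio at 1 h was above that at 30 min. The highest ratio fell at 3 or 6 h, and the 12 and 24 h ratios were lower than both. A dimmer ID2 probe had 0.85 at 6 h, 0.89 at 12 h and a smaller difference of 0.55. The differences were 1.22 ± 0.31 for ID1, 0.87 ± 0.18 for ID2, 0.70 ± 0.21 for ID3 and 1.09 ± 0.24 for ID4 (log2, SE). None passed limma's adjusted threshold, with adjusted p-values between 0.656 and 1. The unadjusted p-values lay between 0.00098 and 0.0079. Without the 30 min array, and so against 1 h alone, they were 0.75, 0.71, 0.40 and 0.67 for ID1, ID2, ID3 and ID4.

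**Figure D1:**
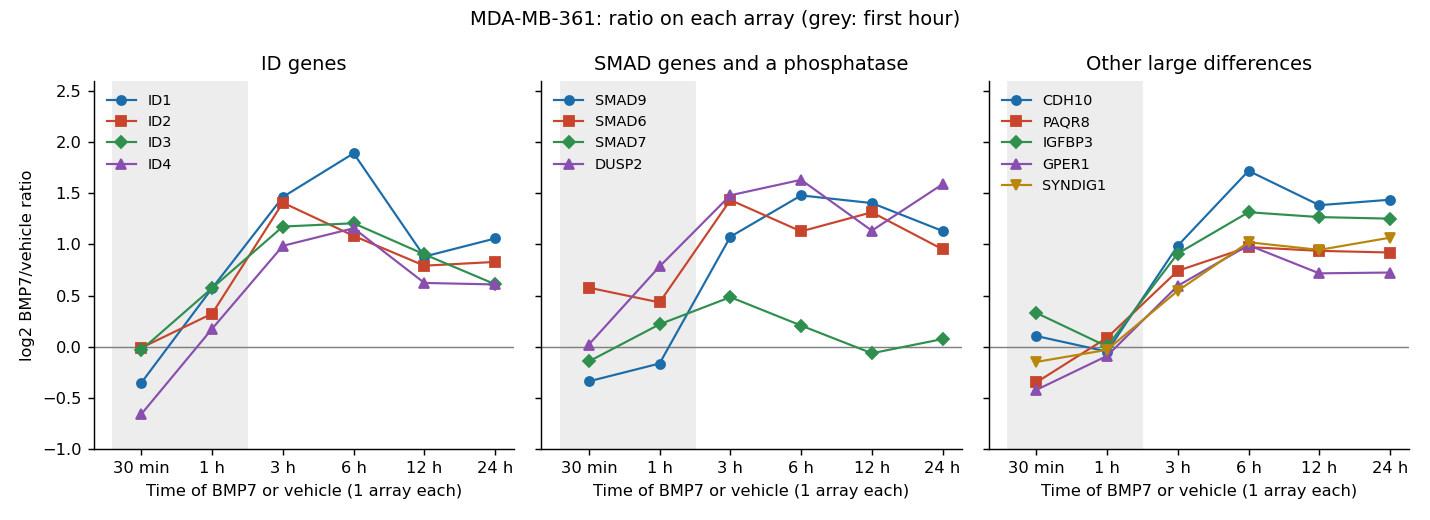
The log2 BMP7/vehicle ratio (vertical axis) of 13 genes on each of the 6 MDA-MB-361 arrays (horizontal axis, in order of time and not to scale), 1 point per array and no error bars because each time has 1 array. The ID genes peaked at 3 or 6 h, while SMAD9, CDH10 and IGFBP3 were near 0 at 1 h and stayed above 0.9 from 3 to 24 h.

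Among 12 genes that restrain the pathway inside the cell, 3 were higher on every later array (all probes: 5.54%). Of the others, 0 were lower (all probes: 4.59%) and 9 overlapped. The median difference of the list was 0.14, beside 0.00 over all probes kept. SMAD6, an inhibitory SMAD that acts mainly on BMP receptors, had log2 ratios of 0.58 and 0.43 in the first hour and of 1.44, 1.13, 1.32 and 0.95 later. Its difference was 0.70 ± 0.14 (adjusted p = 0.644, limma). SMAD7, which acts on TGF-β receptors as well, had 0.48 at 3 h but only 0.07 at 24 h, and its windows overlapped with a difference of 0.14 ± 0.16. BAMBI, a pseudoreceptor without a kinase, had no usable value at 1 h, was at -0.31 at 30 min and ranged from -0.03 to 0.41 later. SMURF1, a ubiquitin ligase, had a difference of 0.15 ± 0.10. SKI, SKIL, SMURF2, PMEPA1 (TMEPAI on the array), TGIF1, TGIF2, TOB1 and TOB2 overlapped with their brightest probes. A dimmer SKI probe was higher on every later array, with a difference of 0.30, and another overlapped, with -0.11. Of 19 antagonists outside the cell or in its membrane, 8 were measured and all 8 overlapped with their brightest probes. A dimmer probe of TWSG1 was lower on every later array, with a difference of -0.31. NOG, GREM1 and CHRDL2 did not pass the filter. RGMA, a coreceptor, stood out on 1 array alone with a log2 ratio of 1.33 at 12 h for its brightest probe. The dimmer RGMA probe was at -0.33 on that array and lower on every later array (difference -0.25), so that the probes disagree.

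**Figure D2:**
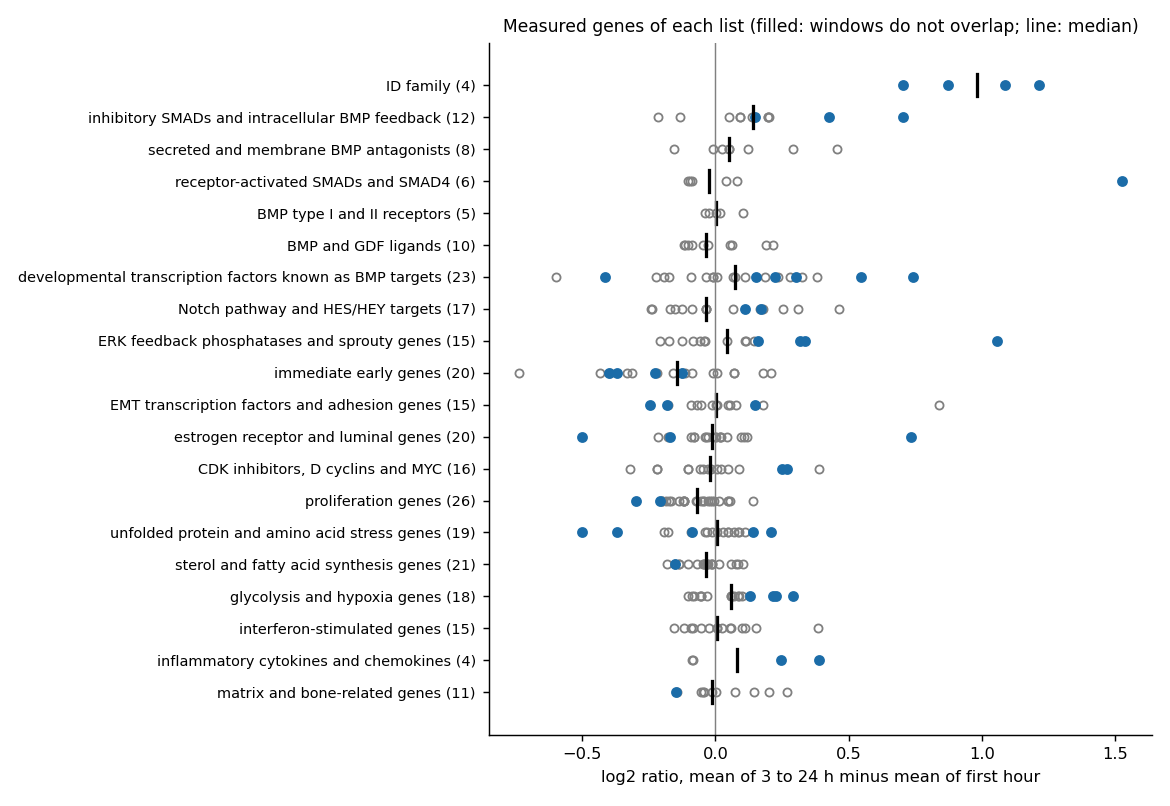
The difference of mean log2 ratio between the 3 to 24 h arrays and the first-hour arrays (horizontal axis) for the measured genes of 20 lists (rows, number of genes in brackets), each gene read from its brightest probe. Filled points have windows that do not overlap, and the black line is the median of the list. The ID family is the only list with all its points filled, and most lists have a median close to 0.

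Of 23 measured developmental transcription factors known as BMP targets, 5 were higher on every later array (all probes: 5.54%). Among the rest, 1 was lower (all probes: 4.59%) and 17 overlapped. ATOH8, a basic helix-loop-helix factor, had the largest difference of the list. It had log2 ratios of 0.21 and 0.06 in the first hour and of 1.15, 0.95, 0.56 and 0.84 later. The difference was 0.74 ± 0.15, but the vehicle signal of this dim probe also differed by 1.09 between the windows. The homeobox gene DLX2 had 0.54 ± 0.11 with its brightest probe, and all 3 of its probes were higher on every later array. Its neighbor DLX1 had 0.30 ± 0.11 and MSX2 0.22 ± 0.09. A dimmer DLX1 probe overlapped, with a difference of 0.11. GATA2, a zinc-finger factor, overlapped at 6 h with a difference of 0.38 ± 0.16. KLF10, a factor known as an early TGF-β response gene, was the gene with lower values, from 0.33 and 0.05 to between -0.41 and 0.03 (difference -0.41 ± 0.14). HHEX, which overlapped, had a difference of -0.60 ± 0.22. The adjusted p was at least 0.656 for each of these brightest probes in limma.

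Genes that damp ERK signaling included DUSP2, a nuclear phosphatase of MAP kinases. Its brightest probe had log2 ratios of 0.02 and 0.78 in the first hour and of 1.48, 1.63, 1.14 and 1.59 later. The other probe had -0.14 and 0.82 against 1.63, 1.47, 0.93 and 1.66. Both probes were intermediate at 1 h, and neither was lower at 24 h than at 3 h, unlike the ID genes. The differences were 1.06 ± 0.21 and 1.08 ± 0.28 (adjusted p = 0.644 and 1), and that of the brighter probe was 0.68 without the 30 min array. In this list of 15 measured genes, 4 were higher on every later array (all probes: 5.54%) and 0 lower (all probes: 4.59%). DUSP10 had 0.34 ± 0.12 and SPRY4 0.32 ± 0.14. A dimmer DUSP10 probe overlapped, with a difference of 0.16.

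The probes with the largest differences came mostly from genes outside these lists. A mean difference of at least 2-fold was reached by 13 probes upward (0.0511%) and 1 downward (0.00393%). The downward probe and the probe with the highest difference both lacked a gene symbol. The downward probe rested on a single extreme array, with -4.50 at 3 h. The probe with the highest difference varied widely, from -2.64 at 1 h to 1.82 at 12 h and -0.90 at 24 h, and its windows overlapped. Another upward probe without a symbol was above 0 only at 12 h, with 1.68. The genes below were named after their values were seen, as the 12 largest differences in each direction among probes with a symbol, 6 values, windows that did not overlap and an unadjusted p under 0.05, which were 276 higher and 260 lower. Of the 12 genes with higher later values, SMAD9, ID1, ID2, ID4 and DUSP2 are described above.

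CDH10, a type II cadherin, had log2 ratios of 0.10 and -0.05 in the first hour and of 0.99, 1.72, 1.38 and 1.44 later. It was near 0 for 1 h and at least 1.98-fold up from 3 h on, with a difference of 1.36 ± 0.18 (adjusted p = 0.183). IGFBP3, which binds insulin-like growth factors, had 0.33 and 0.00 against 0.91, 1.32, 1.27 and 1.25. PAQR8, a membrane progestin receptor, had -0.35 and 0.09 against 0.74, 0.97, 0.94 and 0.92. The 4 later values of both genes form a plateau from 6 h on, with the 3 h value lowest. GPER1, the G protein-coupled estrogen receptor (GPR30 on the array), had -0.42 and -0.09 against 0.60, 0.99, 0.72 and 0.73. SYNDIG1 (C20orf39), a synaptic membrane protein, had -0.15 and -0.03 against 0.55, 1.02, 0.95 and 1.07. The differences were 1.02 for IGFBP3, 1.03 for PAQR8, 1.02 for GPER1 and 0.99 for SYNDIG1, with adjusted p-values of 0.183, 0.183, 0.183 and 0.215. EDN2, the precursor of the vasoconstrictor endothelin-2, had -0.81 and 0.41 against 1.16, 0.86, 0.69 and 0.88. Its first-hour values lay far apart, and the difference of 1.1 ± 0.28 was 0.49 without the 30 min array. MTERF4 (MTERFD2), a mitochondrial protein of the ribosome assembly pathway, had a difference of 0.90 ± 0.14 with its brightest probe. Its other 2 probes were also higher on every later array. Of the 12 genes, 7 had their highest ratio at 6 h, 3 at 24 h and 2 at 3 h.

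Further genes outside the lists had smaller differences. MAP3K5, the stress kinase ASK1, had -0.04 and 0.03 against 0.86, 1.07, 0.64 and 0.72, a difference of 0.83 ± 0.13 (adjusted p = 0.225). SAMD11 had 0.77 ± 0.11 (adjusted p = 0.215), and CCDC85A had 0.85 ± 0.15 (adjusted p = 0.333). For BCL2, a survival factor, the brightest probe gave 0.10 and a dimmer one 0.72, so that the probes disagree. HOXB9 had 0.83 ± 0.29 and overlapped, with a ratio of 0.72 at 1 h and a difference of 0.26 without the 30 min array.

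**Figure D3:**
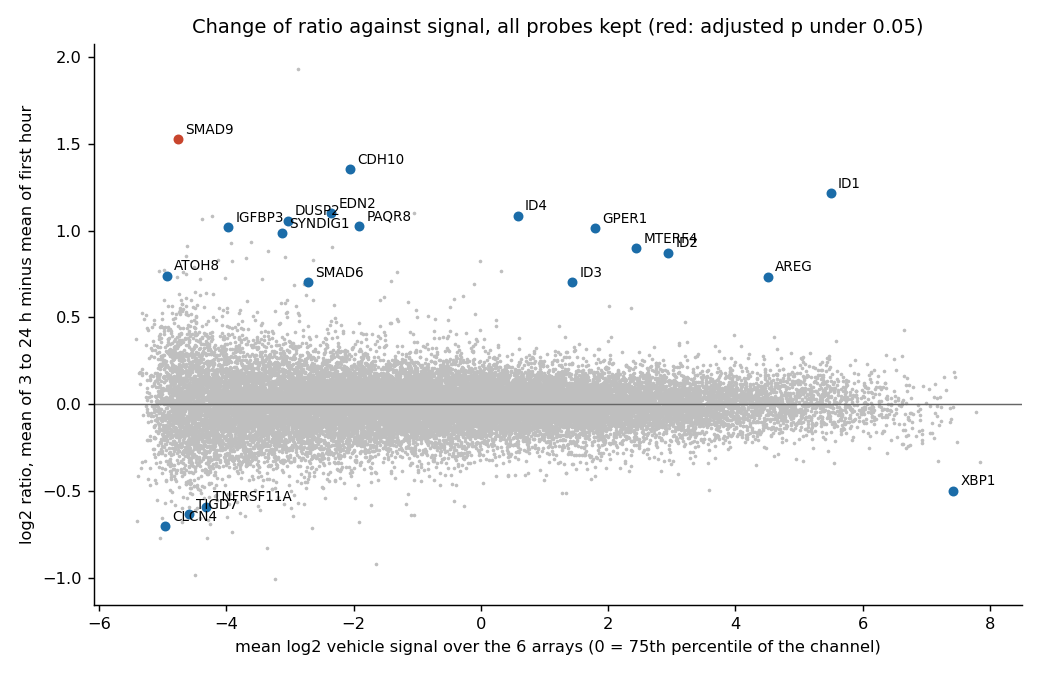
Difference of mean log2 ratio between the windows (vertical axis) against the mean log2 vehicle signal (horizontal axis, 0 at the 75th percentile of the channel) for the 25439 probes kept, with named genes labelled. SMAD9, in red, is the probe past the adjusted threshold; the grey cloud widens toward dim probes, while ID1, AREG and XBP1 lie outside it at bright signal.

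The genes with lower later values had smaller differences and mostly dim probes. The 12 largest lay between -0.70 and -0.58, and none passed the adjusted threshold. TIGD7 had the smallest spread, with log2 ratios of 0.32 and 0.38 in the first hour and of -0.32, -0.31, -0.14 and -0.35 later (difference -0.63 ± 0.10, adjusted p = 0.225). TNFRSF11A, the receptor RANK, had 0.10 and 0.24 against -0.43, -0.40, -0.61 and -0.23 (difference -0.59 ± 0.12, adjusted p = 0.656). TNFRSF19, a related receptor, was lower on every later array with both of its probes, by -0.67 with the dimmer and -0.58 with the brighter. For the dimmer TNFRSF19 probe the 12 h value of -1.29 was the lowest, and the difference within the first slide was -0.36. CLCN4, an exchanger of chloride and protons, had -0.70 ± 0.19, and its vehicle signal differed by 1.31 between the windows. VWF, ACSS1, TIMELESS and RFLNA (FAM101A on the array) had differences of -0.60, -0.59, -0.59 and -0.59, and that of VWF was -0.37 within the first slide. ESF1, ZNF367, ZNF644 and FAM135A completed the 12, but a second probe of ESF1 had a difference of 0.24. KCND2, a potassium channel, had a larger difference of -0.98 ± 0.30, with log2 ratios of -0.96 at 6 h, -1.38 at 12 h and -1.40 at 24 h. Its 3 h value of -0.33 overlapped with -0.36 at 30 min.

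XBP1, a transcription factor of the secretory pathway and of luminal cells, had 0.26 and -0.10 in the first hour and -0.34, -0.68, -0.37 and -0.28 later. Its difference was -0.50 ± 0.14 (adjusted p = 1), but a second probe gave -0.05 with overlapping windows. AREG, the EGF receptor ligand amphiregulin and an estrogen target, had -0.40 and -0.34 against 0.20, 0.57, 0.29 and 0.39. All first-hour values of AREG were below 0 and all later ones above it, for a difference of 0.73 ± 0.12 (adjusted p = 0.239). Of 20 measured estrogen receptor and luminal genes, 1 was higher on every later array (all probes: 5.54%), 2 were lower (4.59%) and 17 overlapped.

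Immediate early genes respond within minutes to many stimuli. Of 20 measured, 0 were higher on every later array (all probes: 5.54%), 4 were lower (4.59%) and 16 overlapped. Their median difference was -0.14. ATF3 had 0.14 and 0.05 against -0.33, -0.29, -0.14 and -0.34, and NR4A2 had 0.08 and 0.00 against -0.63, -0.23, -0.27 and -0.30. The other 2 were SRF and CCN1 (CYR61 on the array). Dimmer probes of these genes differed in part. That of ATF3 overlapped, with 0.76 at 12 h. The dimmer SRF probes overlapped, with differences of 0.02 and -0.02. A dimmer CCN1 probe overlapped, with -0.06, and another was lower on every later array, with -0.27. JUN, NR4A1 and EGR2 had differences of -0.39 ± 0.15, -0.33 ± 0.14 and -0.74 ± 0.36 and overlapped. A dimmer NR4A1 probe was lower on every later array, with a difference of -0.45 (adjusted p = 0.731, limma). The vehicle channel itself differed between the windows in this group, by -3.71 for FOS, -2.56 for EGR2, -1.96 for MYC, -1.62 for EGR1, -1.16 for JUN and -0.78 for ATF3. Adjusted p-values of the brightest probes of these genes were 1.

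The plot of both channels shows where each ratio came from. For SMAD9, CDH10, ID3, ID4, SMAD6 and the brighter DUSP2 probe the BMP7 channel was higher in the later window by 0.79 to 1.85 log2 units, and the vehicle channel differed by -0.06 to 0.49. For ID1 the BMP7 channel differed by 0.66 and the vehicle channel by -0.56, and for AREG by 0.09 and -0.66. ID2 (0.53 and -0.35) and the dimmer DUSP2 probe (0.64 and -0.45) were split between the channels like ID1. Part of the difference in ID1 and nearly all of that in AREG thus stood in lower vehicle signals later on. Channel signals are scaled to the 75th percentile of each array and carry the dye and array effects that the ratio shares out.

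**Figure D4:**
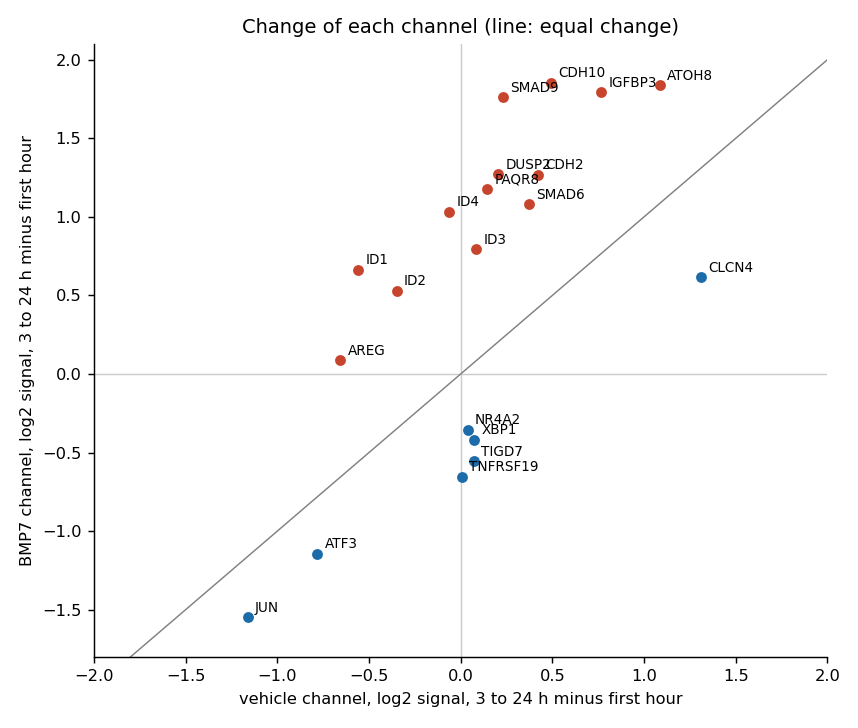
Difference of log2 signal between the 3 to 24 h and the first-hour arrays in the vehicle channel (horizontal axis) and the BMP7 channel (vertical axis), 1 point per gene, each channel scaled to its 75th percentile. Points above the line (red) have higher later ratios; SMAD9 and CDH10 lie high near the vertical axis, AREG near the horizontal axis on the left, and JUN and ATF3 low on the left, where both channels had less signal.

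Adhesion genes were examined because BMPs are known for roles in epithelial-mesenchymal transition. Of 15 measured genes, 1 was higher on every later array (all probes: 5.54%), 2 were lower (4.59%) and 12 overlapped. Their median difference was 0.00. CDH2, N-cadherin, had -0.07 at 3 h and then 0.63, 1.04 and 1.12 at 6, 12 and 24 h, against -0.06 and -0.26 in the first hour. It was thus near its first-hour values at 3 h, when the ID genes were at or near their highest. Its difference was 0.84 ± 0.29 (adjusted p = 1) with a dim probe, and 0.44 within the first slide, which lacks 12 and 24 h. CDH1, E-cadherin, had -0.18 ± 0.10 and DSP, desmoplakin, -0.24 ± 0.09, both lower on every later array. The gene that was higher on every later array was CLDN7, a claudin, with a difference of 0.15. FN1, VIM, SNAI1 and SNAI2 had -0.09, 0.18, -0.18 and -0.01 and overlapped.

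Lists for growth and metabolism held small differences. Over all probes, 5.54% were higher on every later array and 4.59% were lower. The cyclin-dependent kinase inhibitors CDKN1A and CDKN1C were higher on every later array, with 0.27 ± 0.09 and 0.25 ± 0.11. Of 26 proliferation genes 0 were higher, 2 were lower and 24 overlapped, and their median log2 ratio was -0.19 at 24 h. Of 18 glycolysis and hypoxia genes 4 were higher and 0 lower, among them the glucose transporter SLC2A1 (0.29 ± 0.11) and the kinase PDK1 (0.22 ± 0.09). A dimmer PDK1 probe was lower on every later array, with a difference of -0.21, so that its probes disagree. NFKBIA, the inhibitor of NF-κB, had 0.39 ± 0.14, and 0.13 without the 30 min array, within a list of 4 measured inflammatory genes, of which 2 were higher. Also without that array, the differences of KLF10, HHEX, DUSP10, XBP1, JUN, CLCN4 and ACSS1 were -0.27, -0.30, 0.18, -0.32, -0.17, -0.39 and -0.37. Windows of all 15 measured interferon-stimulated genes overlapped. Of 17 Notch genes 2 were higher, of 19 stress genes of protein folding 2 were higher and 3 lower, of 21 sterol genes 1 was lower, and of 11 matrix genes 1 was lower. None of these genes passed limma's adjusted threshold.

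On single arrays, with no error to set them against, the count of probes at 2-fold or more was highest at 12 h, with 67 up (0.263%) and 35 down (0.138%). That array also had the widest spread of ratios over the kept probes, with an SD of 0.31. The SD of the other arrays ran from 0.21 at 1 h to 0.29 at 30 min. Upward, the arrays of 30 min, 1, 3, 6 and 24 h counted 27 (0.106%), 28 (0.11%), 33 (0.13%), 39 (0.153%) and 30 (0.118%). Downward, they counted 25 (0.0983%), 7 (0.0275%), 15 (0.059%), 17 (0.0668%) and 9 (0.0354%). At 30 min the 3 highest named ratios were LOXL3 (1.50), H6PD (1.48) and SLC22A10 (1.42), and LOXL3 was at 0.20 at 1 h. At 1 h they were GGTA1 (1.67), ANKRD11 (1.46) and SEC16B (1.40), of which GGTA1 was between 1.04 and 1.67 on all 6 arrays. The highest values at 3 and 6 h belonged to DUSP2, ID1 and, at 6 h, CDH10. At 12 h they were TSPAN32 (1.85), NEUROG3 (1.45) and SMAD9, and at 24 h again both DUSP2 probes and CDH10. TSPAN32 was below -0.5 on the other 5 arrays. The lowest ratios at 3 h (LINC00593 at -3.26, KIAA0319 at -1.97, KIF5C at -1.91) likewise stood alone among the arrays. The lowest at 30 min were BRWD1, EFCC1 and C6orf62 (-1.22 to -1.19), at 1 h EMID1, RBAK and ITPRID2 (-1.09 to -0.99), at 6 h RNF215, ZIC5 and NRG2 (-1.44 to -1.10), at 12 h ARHGAP29, KCND2 and TNFRSF19 (-1.42 to -1.29), and at 24 h KCND2, SEPTIN10 and HAUS7 (-1.40 to -1.17).

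The study also defined a list of 210 probes by clustering of correlated values (its group C), in part on these samples, so that the list is not independent of them. Of these, 200 were kept in MDA-MB-361, where 18 were higher on every later array (all probes: 5.54%), 1 was lower (4.59%) and 181 overlapped. Their median log2 ratio was 0.46 and 0.34 on the first-hour arrays and 0.50, 0.34, 0.67 and 0.48 on the later arrays, in order of time. The list was thus above 0 already at 30 min, and its median difference between the windows was 0.11. Without swapped dyes, a response present at every time and a dye effect cannot be told apart on the arrays of this line alone. The study reports the group C genes as commonly raised in MDA-MB-361 but lowered in HCC1954. The cause of the level in MDA-MB-361 was not tested.

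The change in MDA-MB-361 was compared with the mean change of the other 4 lines, over 24177 probes also measured in at least 16 of the 30 arrays. In limma, 0 probes passed in either direction (0% higher and 0% lower), with 250 higher (1.03%) and 611 lower (2.53%) at an unadjusted p under 0.05. SMAD9 had own differences of 0.23 in HCC1954, 0.67 in MDA-MB-231, 0.64 in T-47D and 0.75 in ZR-75-30, against 1.53 in MDA-MB-361. The excess was 0.95 ± 0.26 (adjusted p = 1, unadjusted p = 0.00114). In T-47D that value rested on -0.89 at 1 h, in MDA-MB-231 on 1.09 at 12 h, and in ZR-75-30 both channels exceeded background well on 3 of 6 arrays. ID2 and ID3 had larger differences in some other lines. ID2 had 1.12 in HCC1954, 1.41 in MDA-MB-231, 0.44 in T-47D and 0.88 in ZR-75-30, and its excess in MDA-MB-361 was -0.09 ± 0.29. ID3 had an excess of -0.08 ± 0.28, SMAD6 of 0.21 ± 0.23 and ATOH8 of -0.03 ± 0.38. For ID1 it was 0.46 ± 0.41, with 1.21 in MDA-MB-231 and 0.32 in ZR-75-30. ID4 had 0.50 in HCC1954, 0.85 in MDA-MB-231 (well above background in both channels on 0 arrays), -0.08 in T-47D and -0.29 in ZR-75-30, and an excess of 0.84 ± 0.27 (unadjusted p = 0.00468 in limma).

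The genes with a further excess in MDA-MB-361 were named after their values were seen. AREG had the smallest unadjusted p (3.59e-05, adjusted p = 0.868), with -0.23, -0.30, 0.02 and -0.15 in HCC1954, MDA-MB-231, T-47D and ZR-75-30 and an excess of 0.90 ± 0.18. MAP3K5 had between -0.29 and 0.18 in the other lines and an excess of 0.82 ± 0.19. HOXB9 had between -0.29 and 0.03 and an excess of 0.94 ± 0.25. IGFBP3 had between -0.09 and 0.45 and an excess of 0.85 ± 0.23, but was well above background in both channels on 1 of 6 arrays of T-47D. The brighter DUSP2 probe had between -0.05 and 0.62 and an excess of 0.74 ± 0.20. The dimmer DUSP2 probe, at 1.08 in MDA-MB-361, had 1.06 in T-47D and 0.66 in ZR-75-30 and an excess of 0.69 ± 0.26. PAQR8 had between -0.15 and 0.01 and an excess of 1.08 ± 0.34, but was well above background in both channels on 0 arrays of HCC1954. On the lower side, TCF7L1, a transcriptional partner of β-catenin, had -0.69 against 0.19 to 0.79 elsewhere, an excess of -1.13 ± 0.30. The adjusted p was 1 for MAP3K5, HOXB9, IGFBP3, DUSP2, PAQR8 and TCF7L1. CDH10 and SYNDIG1 were not in this comparison, since they were well above background on at most 5 of 6 arrays of T-47D for CDH10 and on 0 arrays of the other lines for SYNDIG1.

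**Figure D5:**
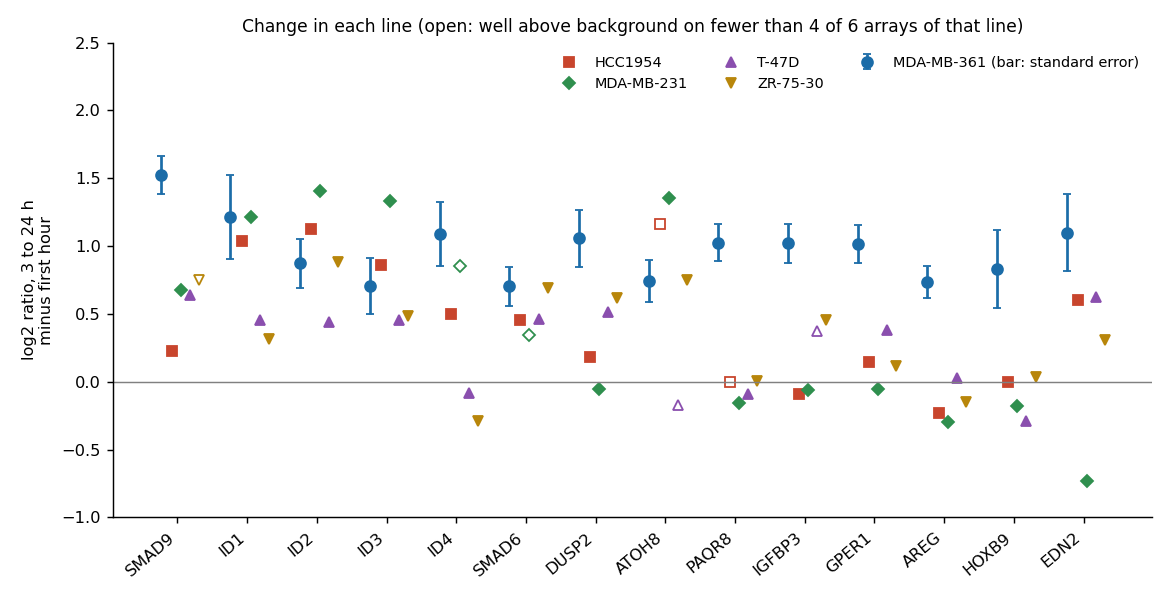
Difference of mean log2 ratio between 3 to 24 h and the first hour (vertical axis) for 14 genes (horizontal axis) in each of the 5 lines, 1 point per line; bars on MDA-MB-361 are the standard error of the fit, and open symbols mark probes well above background on fewer than 4 of 6 arrays of that line. ID2 and ID3 of MDA-MB-361 lie among the other lines. SMAD9, ID4, DUSP2, PAQR8, IGFBP3, GPER1, AREG, HOXB9 and EDN2 lie above all of them, and ID1 and SMAD6 barely above the highest of them.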

How the data were processed

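Gene expression was measured on two-colour Agilent Whole Human Genome arrays, 1 per line and time. The authors deposited log10 ratios (Cy5 over Cy3) and intensities of both channels, which per the file headers came from Feature Extraction 9.5.1.1 (array design on hg18), with background subtraction, linear and lowess dye normalization, and surrogates for dim signals. A matrix of log2 ratios that the authors deposited served as an alternative. The files' p-values were not used.

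Ratios were expressed as log2 after removal of control spots and of spots marked as outliers, replicate spots were averaged, and the median of every array was set to 0. Differences were tested with limma 3.58.1 (R 4.3.3; lmFit, eBayes, two-sided, Benjamini-Hochberg over all probes kept, threshold 0.05). The 4 later times of a window are not replicates, so that the error holds changes within a window, and pooled cultures are not separate samples. An exact permutation of 4 against 2 arrays could not give a two-sided p below 0.133. Slide 1 held 30 min to 6 h and slide 2 held 12 and 24 h, on 1 scan day. Names were matched to RefSeq for 27745 of 41000 probes, by symbol, synonym or accession. A gene was read from its brightest kept probe, except where another probe is stated. Named were list genes, the 12 largest differences in each direction, the largest against the other lines and the 3 highest and lowest per array. The members, lists and tests were chosen with earlier results of these data known. The comparison between windows was simulated on 25371 probes. There limma recovered 33 of 100 changes of 0.5 and 96 of 100 of 1 (log2), with 5 false calls. For the comparison between lines, simulated on 22142 probes, it recovered 3 and 61 of 100, with 1 false call. The simulated noise was independent and normal about a constant mean, unlike a window of 4 times, so that these rates are not the power in the data. Of the 13 measured probes with a mean difference of at least 2-fold upward, 1 passed. Alternatives changed background correction, scaling, filter, slide, variance model and arrays.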

Additional observations from a re-analysis of the deposited data

Results flagged for a closer look

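A gap test (Dixon) over the 4 later arrays was applied to 60 of the genes named above, and chance alone marks about 1 group in 20. It marked 2 of the 60, which is not above that rate. IGFBP3 at 3 h, with a log2 ratio of 0.91, stood apart below its other 3 values. NR4A2 at 3 h, with -0.63, stood apart below its other 3 values.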

How the results depend on the processing

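The number of probes higher from 3 to 24 h than in the first hour, 1 in the analysis above, was 9 with normexp and loess, 7 with normexp and median scaling, 11 with a variance trend on signal and 3 in a fit of all 30 arrays. It was 0 with both channels well above background on all 6 arrays, which leaves out SMAD9, 0 with at least 1 channel well above background, 0 without a filter, 0 with the slide as a fixed block, 0 within the first slide and 0 for a linear trend on log2 of time, and 0 to 2 when 1 array was left out. SMAD9 was among the probes called in each of the settings with 3 or more calls, and the cause of the differences was not tested. For the number of probes lower, 0 above, a fit of all 30 arrays gave 1 and leaving out 1 array gave 0 to 1. Against the other lines, where 0 passed, no filter gave 5 higher and 5 lower, array weights gave 3 higher, and leaving out 1 array gave 0 to 1 higher. The total of 2-fold ratios over the 6 arrays, 332 above, was 209 with both channels required on all 6 arrays, 557 with 1 channel, 3707 without a filter, 75 with normexp and loess, 754 with normexp and median scaling and 30 at 3-fold.

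Of 1126 values of 60 named genes under an alternative, 1095 kept their direction and their side of the threshold. Another 21 passed it, 9 (all SMAD9) no longer did, and SMAD7 was at -0.043 to 0.320 when 1 array was left out, reversed without the 30 min array. The difference of SMAD9 was 0.71 at its lowest. Among genes with negative differences, those of CLCN4, TIMELESS, HHEX and TNFRSF11A were -0.003, -0.043, -0.091 and -0.11 at their weakest. Keeping direction therefore does not mean keeping size. That of RFLNA stayed between -0.70 and -0.52. Of probes whose windows did not overlap, 54.7% were higher, 49.8% with normexp and median scaling and 67.1% with the series matrix. Dim probes vary more, which limits them. No paired analysis was possible because the labels give no replicate numbers, beyond the pairing of BMP7 with vehicle that each array holds.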
